A study of Mus musculus with 6 samples.

Results

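This account concerns 32 genes that mark the progenitors of the developing cortex, out of 35510 genes in the deposited count table, measured in newborn mouse cortical cells with and without a sponge for miR-17-5p. They were chosen by symbol as markers of radial glia, of Notch signalling and of intermediate progenitors, and each symbol matched 1 row. By role they fall into 8 transcription factors of radial glia, 11 structural, metabolic and surface proteins of radial glia, 6 ligands and receptors of the Notch pathway, and 7 intermediate progenitor and neurogenic genes.

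The sponge group carried a miR-17-5p sponge plasmid, whose RNA offers many decoy sites to this microRNA, and the control group carried a control plasmid. Both groups were wild-type mice of the outbred Swiss stock RjOrl:SWISS, electroporated in utero at E15.5 and collected at P0, and the label of the cells in both is cortical neurons. Each group had 3 libraries of messenger RNA, each from 50 ng of RNA of about 100000 cells pooled from about 10 brains, and the column names mark the cells as sorted. The study as titled is about alcohol before birth, and none of these 6 libraries is labelled as exposed. The sources used here do not give the plasmid promoter, the sorting marker or the number of litters behind each pool, so p-values measure only the spread between these libraries.

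Radial glia are the stem cells of the embryonic cortex. They line the ventricle, span the cortical wall with a long fibre, and divide to give neurons either directly or through intermediate progenitors, which carry the T-box factor Eomes. Notch receptors on radial glia are activated by Delta and Jagged ligands on neighbouring cells and hold back the proneural factors of the Neurog family, so that the pool of stem cells is kept. Around birth radial glia turn to making glia, and several of their genes, Slc1a3, Fabp7, Sox9 and Hopx among them, stay on in astrocytes. In utero electroporation delivers a plasmid to radial glia at the ventricle, and their daughters inherit it.

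The sequences shown are the microRNA that the sponge is made for and each match to it among these genes. Bases 2 to 8 of miR-17-5p, its seed, pair with the word GCACTTT in a 3′ UTR, and the mature microRNA is shown with its seed in capitals (RefSeq, GRCm38.p6, chr14:115043684-115043706, plus strand). The word was searched on the transcript strand of the longest annotated 3′ UTR of each gene (GENCODE M21, GRCm38). It was found in 2 of the 32 genes, 6.25%, and in 14.5% of the 15313 tested genes with a 3′ UTR of at least 50 bases. The 2 sites are shown with the match in capitals and the coordinates of all printed bases. That of Neurog1 covers bases 256 to 262 of a 3′ UTR of 720 bases (chr13:56250930-56250954, minus strand), and that of Neurog2 covers bases 574 to 580 of 1111 (chr3:127635082-127635106, plus strand).
mmu-miR-17-5p: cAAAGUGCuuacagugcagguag
Neurog1: ttcgtttttgttGCACTTTctgaac
Neurog2: cctctctgatgtGCACTTTgttttt
The longer word with an A after the match, GCACTTTA, was in none of the 32 genes and in 4.32% of the tested genes. A match is a description of letters and does not show that the microRNA binds there.

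Both carriers are proneural transcription factors, and the groups overlapped for both. Neurog2, which starts the neurogenic programme in cortical progenitors (chromosome 3, 127633135 to 127635631), had 4798, 4052 and 4779 normalised counts in the sponge libraries, against 4233, 4690 and 4923 in the control libraries. A normalised count is a gene's count divided by a scaling factor of its library. Sponge library 2 had the lowest value and control library 3 the highest, and the log2 fold change was −0.02 (95% interval −0.32 to 0.27, limma adjusted p = 0.976). Neurog1, its close relative with a more limited part in the cortex, was nearly absent, with 5.91, 10.4 and 15 normalised counts in the sponge libraries, against 2.00, 40.0 and 11.1 in the control libraries. At such counts a difference was not detectable, and the interval of its log2 fold change ran from −2.48 to 2.32.

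The libraries are deep, with 115445910 to 138254412 counts each. The labelled cell type is cortical neurons, and 15 neuronal markers listed for excitatory neurons of the cortex were above 0 in every library. They summed to 692418 to 704862 normalised counts in the sponge libraries and 650214 to 726715 in the control libraries. The 32 progenitor genes and the 15 cell cycle genes examined were above 0 in every library too. So were the markers of microglia, oligodendrocyte precursors and interneurons, so values above 0 at this depth do not test the label. The difference of control library 1 from the other 5 goes weakly with gene length (Spearman's rho −0.19 across 22428 tested genes). Control library 1 also has the highest sums of erythroid and microglia markers. Sponge library 1 is the highest of the 6 for many of the genes described here. Many of the values that follow are also given without either or both of these libraries.

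Radial glia products ranked among the most abundant messages of these cells when normalised counts were divided by exon length. Fabp7, a fatty acid-binding protein of radial glia, led with 155816 ± 21448 normalised counts per kilobase in sponge libraries, against 172834 ± 57864 in control libraries (SD, n = 3 per group). Dbi, a binding protein of acyl-CoA esters, came next with 26528 ± 3878 in sponge libraries, against 33204 ± 18160 in control libraries. Fabp7 thus stood clear of Dbi by more than the spread between libraries.

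Below Dbi the order is close. The matrix protein Tnc, the phosphatase Ptprz1, the milk fat globule protein Mfge8, the glutamate transporter Slc1a3, the stem cell factor Sox2, the enzyme Ddah1 and the intermediate filament Vim had control levels between 11682 and 16813 per kilobase, and neighbours among them did not differ beyond their spread. Insm1, a zinc finger factor of intermediate progenitors, was the tenth, with 11062 ± 1689 in sponge libraries, against 10787 ± 1070 in control libraries, a level above 98.2% of all tested genes. Eomes stood at 3815 ± 378 in sponge libraries, against 3970 ± 477 in control libraries. Pax6 was nearer the lower end, with 1308 ± 137 in sponge libraries, against 1244 ± 189 in control libraries.

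**Figure D1:**
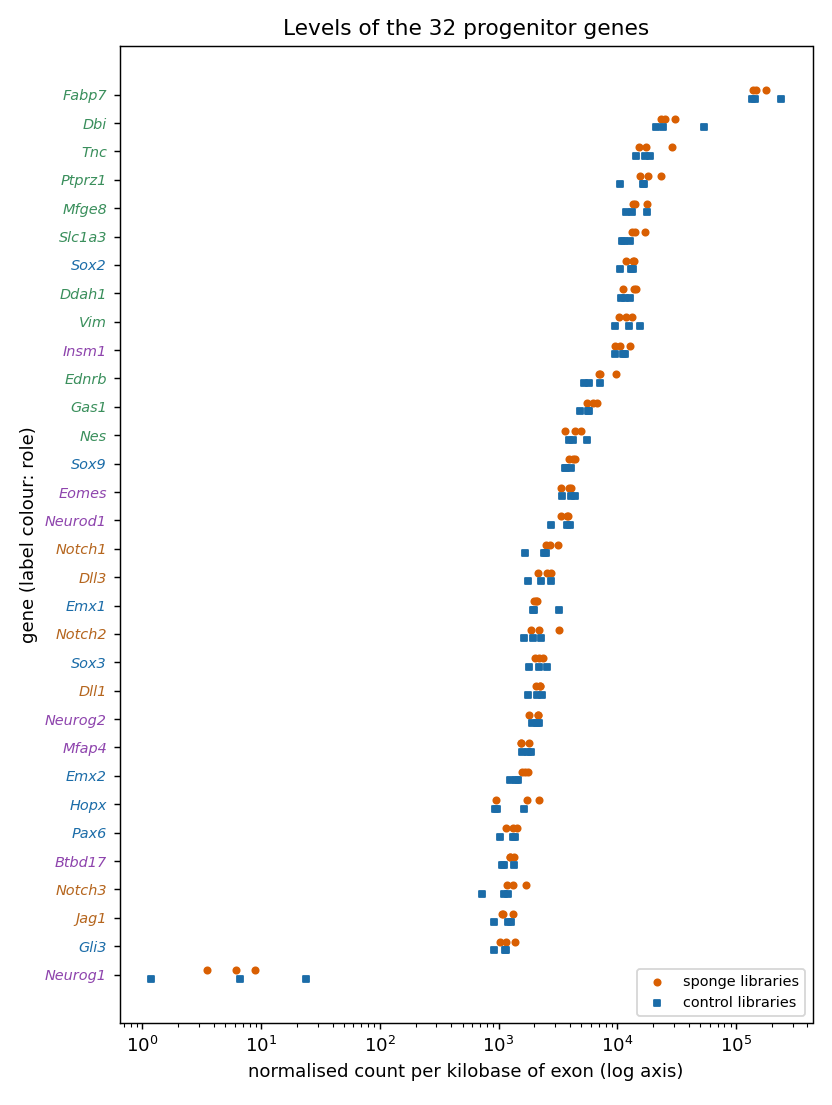
Normalised counts per kilobase of exon (log axis) for the 32 progenitor genes, ordered by level, with 1 point per sponge library (circles) and per control library (squares); label colours mark the role (blue transcription factors, green structural and surface proteins, brown Notch pathway, purple intermediate progenitor genes). Fabp7 lies far above the rest, Neurog1 far below, and for most genes the points of the 2 groups overlap.

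All 32 genes had a mean of at least 10 normalised counts and entered the test across 22479 genes. None passed it at an adjusted p under 0.05, and 0% of all tested genes were called in either direction. Adjusted p-values of the 32 ran from 0.925 to 0.992, and 1 gene, Emx2, had an unadjusted p under 0.05, on the higher side, where 1.58% of all tested genes had one, and 0 had one on the lower side, where 1.31% did. On the log2(value + 1) scale 23 of the 32 had a positive fold change, sponge minus control, and 9 a negative one, against 50.9% of all tested genes positive, with a median of 0.09 against 0.00607. In 3 genes, Emx2, Slc1a3 and Notch1, the 3 sponge values lay above all 3 control values, as they did in 6.17% of tested genes, and in 0 genes did they lie below, against 5.04%. The exact permutation test over 3 against 3 libraries cannot give a p below 0.1 for any of them. In bulk libraries fewer cells of a type and less RNA per cell cannot be told apart, and this holds for each value that follows.

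Without control library 1, 23 of the 32 were higher and 9 lower, with a median of 0.14 against 0.0096 over all tested genes. The split was the same as in 6 libraries, but not the genes on each side. Emx1, Vim, Nes, Fabp7 and Dbi turned to the higher side, and Pax6, Dll1, Jag1, Insm1 and Neurod1 to the lower. None of the 32 passed, where 0.00893% of all tested genes did on the higher side and 0% on the lower. On the higher side 4 genes had an unadjusted p under 0.05, Emx2, Slc1a3, Dll3 and Btbd17, where 4% of all tested genes had one, and on the lower side 0 had, where 3.54% did. In 6 genes all sponge values were above control libraries 2 and 3, against 13.4% of tested genes, and in 0 below, against 11.2%. Without sponge library 1, 20 of the 32 were higher and 12 lower (median 0.06), and without both libraries numbered 1, 21 and 11 (median 0.05). The median 95% interval had a half-width of 0.38 on the log2 scale in 6 libraries and 0.25 without control library 1.

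**Figure D2:**
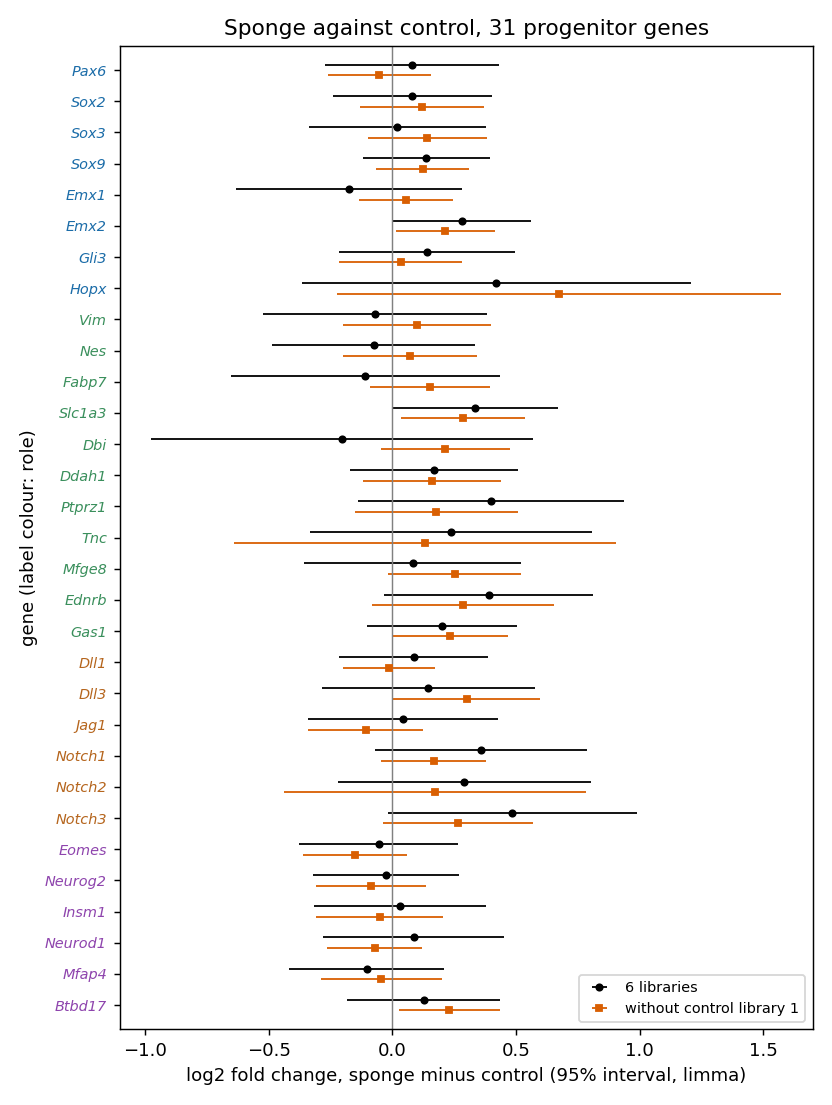
Log2 fold changes, sponge minus control, with 95% limma intervals for 31 progenitor genes in 6 libraries (circles) and without control library 1 (squares); label colours mark the role (blue transcription factors, green structural and surface proteins, brown Notch pathway, purple intermediate progenitor genes), and Neurog1 is left out for its wide interval. The intervals cross 0 in 30 of the 31 genes in 6 libraries, and that of Emx2 ends just above it.

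Among the transcription factors of radial glia, 7 of 8 were on the higher side and 1 on the lower, with a median log2 fold change of 0.11. The median was 0.12 without control library 1, 0.04 without sponge library 1 (6 higher, 2 lower) and 0.02 with array quality weights, which give less weight to libraries that stand apart. Emx2, a homeobox gene that patterns the cortex along its axes (chromosome 19, 59458372 to 59465357), came nearest to a difference. It had 5318, 5015 and 4698 normalised counts in the sponge libraries, against 3759, 4218 and 4406 in the control libraries. The groups were separate by a small margin, with 0.28 ± 0.12 on the log2 scale (SE, limma adjusted p = 0.925), 0.22 without control library 1 and 0.17 without both libraries numbered 1. The antisense transcript Emx2os shares 264 exon bases with it, and the sources used here do not state how the counting treated strand.

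Hopx, a homeodomain protein of radial glia and later of astrocytes (chromosome 5, 77086988 to 77115121), had the widest interval of its role. It had 3315, 2634 and 1439 in the sponge libraries, against 2469, 1486 and 1429 in the control libraries. Sponge library 3 sat at the level of control libraries 2 and 3, while the other sponge libraries lay above all controls. The log2 fold change was 0.42, with an interval of −0.37 to 1.21. Single libraries moved it widely: it was 0.67 without control library 1, 0.77 without sponge library 3 and 0.16 without sponge library 1, its highest.

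The core stem cell factors differed by less than the spread between libraries. Pax6, which drives radial glia towards neurogenesis (chromosome 2, 105668900 to 105697364), had 16700, 13560 and 15639 in the sponge libraries, against 12042, 16202 and 15414 in the control libraries. Only control library 1 lay below the others, and the log2 fold change of 0.08 (interval −0.27 to 0.43) became −0.05 without it. Sox2, a factor of neural stem cells in general (chromosome 3, 34650405 to 34652461), had 28179, 24323 and 28298 in the sponge libraries, against 26939, 27866 and 21884 in the control libraries. Here control library 3 was the low one, and the log2 fold change was 0.08 (−0.24 to 0.40).

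Sox9, which maintains progenitors and later directs gliogenesis (chromosome 11, 112782224 to 112787760), had 17687, 16305 and 18060 in the sponge libraries, against 15444, 16867 and 15032 in the control libraries. Sponge library 2 lay within the range of the controls, and the log2 fold change was 0.14 ± 0.11 (SE). Gli3, a mediator of hedgehog signalling (chromosome 13, 15463235 to 15730026), had 13201, 9892 and 11026 in the sponge libraries, against 8806, 11150 and 10922 in the control libraries. It overlapped widely, at 0.14 in 6 libraries, 0.03 without control library 1 and −0.08 without both libraries numbered 1. The remaining members of the role, Sox3 and Emx1, stood at 0.02 and −0.18, and Emx1 was 0.06 without control library 1, which alone had 7008 normalised counts of it.

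**Figure D3:**
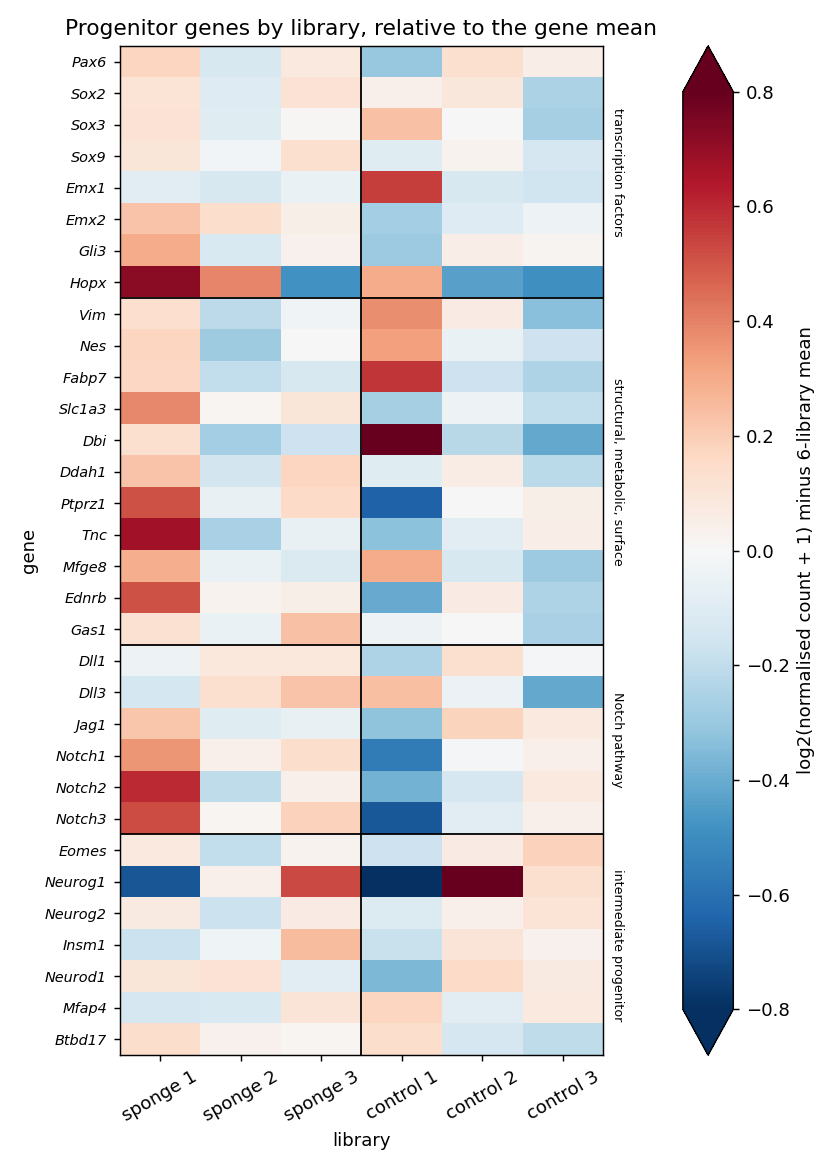
Each cell is log2(normalised count + 1) of a gene (rows, grouped by role) in a library (columns, sponge left of control) minus the mean of the 6 libraries, with colours ending at 0.8 either way. Sponge library 1 is highest for Tnc, Notch2, Notch3 and Ptprz1, and control library 1 is high for Dbi, Fabp7 and Emx1 and low for Ptprz1, Notch1 and Notch3.

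The surface and metabolic proteins of radial glia also held some of the larger values. Of 11 genes, 7 were on the higher side and 4 on the lower (median 0.17), and without control library 1 all 11 were higher (median 0.18), against 51.9% of all tested genes. Without sponge library 1 the direction of the median turned, with 5 higher and 6 lower (median −0.04). The median was 0.28 without sponge library 2, 0.10 without control library 3, 0.09 without both libraries numbered 1 and 0.06 with array quality weights. Slc1a3, the glutamate transporter GLAST of radial glia and astrocytes (chromosome 15, 8634124 to 8710764), had 146092, 112927 and 119637 in the sponge libraries, against 92859, 108841 and 97486 in the control libraries. The lowest sponge value lay just above the highest control value. The log2 fold change was 0.33 ± 0.15 (SE, limma adjusted p = 0.925), 0.28 ± 0.11 without control library 1 and 0.17 without both libraries numbered 1.

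Ednrb, an endothelin receptor of radial glia and astrocytes (chromosome 14, 103814625 to 103844402), had 41842, 29880 and 30308 in the sponge libraries, against 22196, 30643 and 24771 in the control libraries. Sponge library 1 was far above the rest, and control library 2 lay above the other sponge libraries. Its log2 fold change was 0.39 (interval −0.03 to 0.81), and 0.13 without sponge library 1 and control library 1.

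Ptprz1, a receptor phosphatase with chondroitin sulphate chains (chromosome 6, 22875502 to 23052916), had 331595, 223278 and 259028 in the sponge libraries, against 148879, 232682 and 240762 in the control libraries. The extremes are the 2 libraries numbered 1, and the log2 fold change of 0.40 was 0.18 without control library 1 and 0.02 without both. Gas1, a membrane protein that binds hedgehog ligands (chromosome 13, 60174405 to 60177365), had 18685, 16507 and 20159 in the sponge libraries, against 16700, 17113 and 14310 in the control libraries. Its log2 fold change of 0.20 kept its size at 0.22 without both libraries numbered 1, with an interval of −0.10 to 0.50 in 6 libraries.

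The other 7 genes of this role ran from −0.20 for Dbi to 0.24 for Tnc. Tnc, named after its values were seen, had 224795, 117922 and 135481 in the sponge libraries, against 112410, 133253 and 146341 in the control libraries. Sponge library 1 stood far above the rest: without it the log2 fold change was −0.04, and without both libraries numbered 1 it was −0.14. The filament proteins Vim and Nes stood at −0.07 each, and at 0.10 and 0.07 without control library 1.

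The Notch pathway members were all on the higher side in 6 libraries, with a median of 0.22, and 4 of 6 without control library 1, with a median of 0.17. Without both libraries numbered 1 the median was 0.05, again with 4 higher and 2 lower. The receptors had the larger values. Notch3, a receptor of progenitors and of vessel walls (chromosome 17, 32120820 to 32166852), had 13659, 9608 and 10809 in the sponge libraries, against 5926, 8943 and 9764 in the control libraries. Sponge library 2 lay just under control library 3, and the log2 fold change was 0.48 ± 0.22 (SE, limma adjusted p = 0.925), 0.27 ± 0.13 without control library 1 and 0.13 without both libraries numbered 1.

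Notch1, the main receptor of radial glia (chromosome 2, 26457903 to 26516663), had 44688, 35977 and 38579 in the sponge libraries, against 23688, 34572 and 35956 in the control libraries. The groups were separate only by the gap between 35977 and 35956. The log2 fold change was 0.36 in 6 libraries, 0.17 without control library 1 and 0.08 without both libraries numbered 1. Notch2, another receptor of the family (chromosome 3, 98013527 to 98150361), had 35095, 20173 and 23807 in the sponge libraries, against 17800, 21084 and 24523 in the control libraries. It overlapped, with 0.29 in 6 libraries, 0.06 without sponge library 1 and −0.05 without both libraries numbered 1.

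The ligands had smaller values. Dll3, a Delta relative that acts within the cell (chromosome 7, 28293553 to 28302238), had 6086, 7342 and 7847 in the sponge libraries, against 7914, 6488 and 5056 in the control libraries. Control library 1 was its highest library, where the receptors had their lowest, and its log2 fold change was 0.14 in 6 libraries, 0.30 without control library 1 and −0.02 without control library 3. The activating ligands Dll1 and Jag1 stood at 0.09 (interval −0.21 to 0.39) and 0.04 (−0.34 to 0.43). For Notch1, the exons of an annotated transcript on the opposite strand cover 1068 bases, and for Notch2 a transcript on the same strand covers 541 bases, so reads of these neighbours may be counted with them. In all, 12 of the 32 genes share exon bases with another gene, 2 of them, Notch2 and Neurod1, on the same strand.

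Intermediate progenitor genes had a median near 0. Of 7 genes, 3 were higher and 4 lower (median −0.02), and without control library 1 there were 1 higher and 6 lower (median −0.07). It was 0.06 when sponge library 1 was left out and −0.08 when sponge library 3 was, the ends of the range over single libraries left out. Eomes, which defines intermediate progenitors (chromosome 9, 118478212 to 118486132), had 17034, 14071 and 16452 in the sponge libraries, against 14352, 16859 and 18268 in the control libraries. The groups overlapped, with sponge library 2 the lowest and control library 3 the highest. The 95% interval of −0.38 to 0.27 lay around a log2 fold change of −0.05.

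Neurod1, which follows Eomes and Neurog2 in the path to a neuron (chromosome 2, 79452521 to 79456751), had 10359, 10534 and 9172 in the sponge libraries, against 7574, 10815 and 10203 in the control libraries. Control library 1 alone was low, and the log2 fold change of 0.09 became −0.07 without it. Mfap4, a matrix protein gene (chromosome 11, 61485431 to 61488900), had 2948, 2967 and 3475 in the sponge libraries, against 3636, 3032 and 3417 in the control libraries, a log2 fold change of −0.10. Btbd17 (chromosome 11, 114791217 to 114795945) had 4327, 4008 and 3963 in the sponge libraries, against 4325, 3574 and 3409 in the control libraries, with 0.13 in 6 libraries and 0.23 without control library 1. Insm1 stood at 0.03 (interval −0.32 to 0.38).

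Libraries of the same group differed over these genes. Sponge library 1 was the highest of the 6 in 14 of the 32 genes, against 17.6% of all tested genes, and sponge library 2 was the highest in 0. Control library 1 was the highest in 9, against 33.8% of all tested genes, and the lowest in 15, against 36.6%. Control library 3 was the lowest in 13. For sponge library 2 and control library 3 the share over all tested genes was not computed. The median over the 32 genes of the log2 value minus the 6-library mean was 0.15, −0.08 and 0.05 in sponge libraries 1 to 3, and −0.14, −0.00244 and −0.09 in control libraries 1 to 3. Sponge library 2 thus lay below control library 2, and the groups overlapped.

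In control library 1 the longer of these genes were mostly low. The shorter 16 of the 32 genes, with 1250 to 3983 exon bases, were above the mean of the other 5 libraries in 9 cases, with a median difference of 0.11 on the log2 scale. The longer 16, with 4135 to 14245 bases, were above it in 3 cases, with a median of −0.35. Dbi, with 1422 bases, had 43919, 33353 and 35896 normalised counts in the sponge libraries, against 76933, 34473 and 30241 in the control libraries, so that control library 1 lay 1.12 above the mean of the others. Its log2 fold change was −0.20 in 6 libraries and 0.21 without control library 1. Fabp7, with 1250 bases, had 225350, 175299 and 183662 in the sponge libraries, against 299359, 179419 and 169349 in the control libraries, with log2 fold changes of −0.11 in 6 libraries and 0.15 without control library 1. Both genes were picked after their values were seen. Across the 32 genes Spearman's rho between length and this difference was −0.55, and across 22428 tested genes −0.19. Genes share the libraries and are not independent, so these values only describe control library 1.

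**Figure D4:**
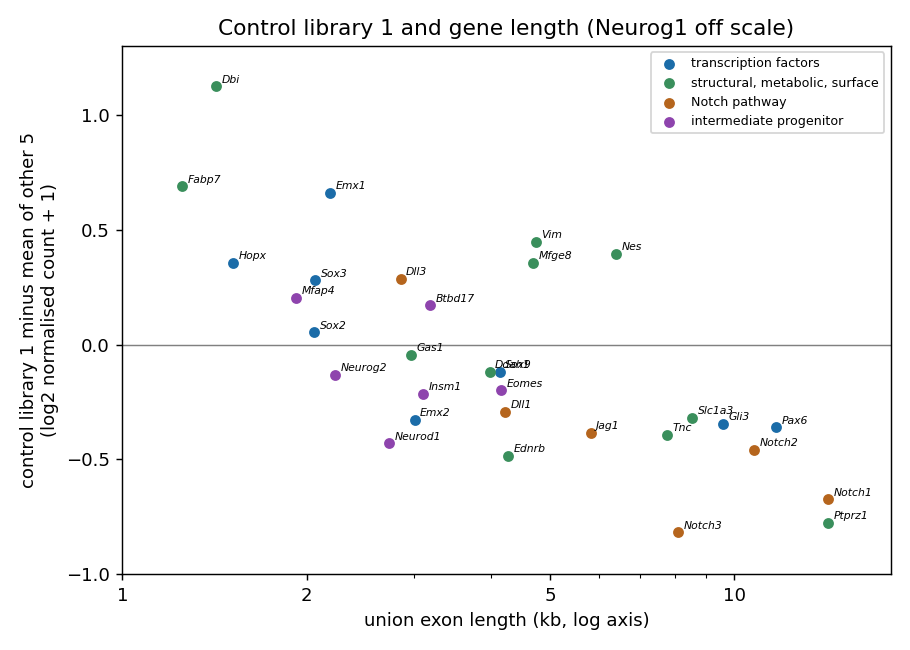
Difference of control library 1 from the mean of the other 5 libraries (log2 of normalised count + 1) against union exon length (log axis), 1 point per gene, coloured by role, with Neurog1 off the scale. Dbi and Fabp7 are short and lie above 0, and Ptprz1, Notch1 and Notch3 are long and lie below it.

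The receptors of the Notch pathway are among the longest of these genes, and after a correction of each library for exon length their log2 fold changes were 0.18 for Notch1, 0.16 for Notch2 and 0.40 for Notch3. With the same correction Slc1a3 stood at 0.24, Emx2 at 0.33 and Ptprz1 at 0.22, and the median of the 32 genes was 0.12. None of the 32 genes passed the test in this setting.

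In the rest of the Notch pathway, 23 of 35 other genes were on the higher side and 12 on the lower (median 0.08), and 0 passed the test. At an unadjusted p under 0.05 there were 2 higher and 0 lower, against 1.58% and 1.31% of all tested genes. Rbpj, the DNA-binding partner of all Notch receptors, had 7062, 6432 and 8379 in the sponge libraries, against 5089, 5477 and 5068 in the control libraries. Every sponge value was above every control value. The log2 fold change was 0.48 ± 0.13 (SE, limma adjusted p = 0.925), 0.46 without control library 1 and 0.31 ± 0.16 after the correction for exon length. Maml2, a co-activator in the same complex, was separate too, at 0.41 ± 0.15, with 0.29 without control library 1 and 0.23 without both libraries numbered 1. On the higher side 3 of the 35 were separate, against 6.17% of tested genes, and on the lower side also 3, against 5.04%. Fold changes of the 35 ran from −0.51 to 0.48. Named after their values were seen, the third on the higher side was Aph1b at 0.24, and those on the lower side were Neurl1a at −0.29, Rfng at −0.16 and Neurl1b at −0.11. With control library 1 left out, Aph1b stood at 0.08, Neurl1a at −0.15, Rfng at −0.10 and Neurl1b at −0.12. The ligand Jag2 had 3246, 4163 and 3210 in the sponge libraries, against 3829, 4381 and 6165 in the control libraries, a log2 fold change of −0.42, and −0.22 without control library 3. Nrarp, a feedback inhibitor and Notch target, stood at 0.21, and 0.26 without control library 1.

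Of 24 other radial glia genes, 19 were on the higher side and 5 on the lower (median 0.10), and 23 of 24 higher without control library 1 (median 0.15). Without control library 3 they were 12 higher and 12 lower (median 0.00076), and without sponge library 1, 15 and 9 (median 0.03). None passed, and 0 had an unadjusted p under 0.05 in 6 libraries, where 1.58% of all tested genes had one on the higher side and 1.31% on the lower. The adhesion molecule Cdh2, the factor Sox21 and the transporter Slc1a2 had log2 fold changes of 0.36, 0.25 and 0.49 in 6 libraries. Without control library 1 these 3 stood at 0.16, 0.26 and 0.17. Of the 24, Sox21 and the patterning factor Lhx2, at 0.08, had all sponge values above all control values in 6 libraries, as did 6.17% of tested genes. Zfp36l1, an RNA-binding protein, stood at 0.24 and 0.12 in the same 2 fits. Of 18 other genes of intermediate progenitors and early neurons, 12 were higher and 6 lower (median 0.06), and 6 higher and 12 lower without control library 1 (median −0.05). Neurod2, a factor of new neurons, had 61997, 64095 and 64498 in the sponge libraries, against 68324, 74319 and 76320 in the control libraries, separate on the lower side at −0.20 ± 0.11 (SE, limma adjusted p = 0.925). The other genes of smallest p in that list, Unc5d, Elavl2 and Neurod4, stood at 0.41, 0.26 and 0.45. Control library 1 was the lowest library for each, and without it they stood at 0.09, 0.07 and 0.24.

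Genes of glia stood beside the radial glia values. The 10 markers of oligodendrocyte precursors summed to 192128 to 201191 normalised counts in the sponge libraries and 156074 to 172560 in the control libraries. The sums did not overlap, and no marker was at 0 in any library. All 10 were higher (median 0.33, and 0.23 without control library 1), or 9 of 10 without sponge library 3. In 5 of the 10 every sponge value was above every control value, against 6.17% of tested genes. Of the 10, 4 had an unadjusted limma p under 0.05 on the higher side, against 1.58%, and 0 passed the test. The 10 astrocyte markers summed to 175291 to 250017 in the sponge libraries and 155942 to 198178 in the control libraries, with sponge library 1 the highest, as it was for 14 of the 32 genes. Of these, 8 were higher and 2 lower, and 1, Gjb6, was at 0 in 1 library. Their median log2 fold change was 0.32, with 0.25 without control library 1 and 0.14 without sponge library 1. Aldoc and Slc1a2 of this list, and Bcan of the oligodendrocyte precursor list, are also among the 24 other radial glia genes. The 15 cell cycle genes summed to 147997 to 176639 in the sponge libraries and 138430 to 169794 in the control libraries, with 7 higher and 8 lower. That split moved with the libraries used. It was 9 higher and 6 lower without control library 1, and 4 and 11 without sponge library 3. Without both libraries numbered 1 all 15 were higher (median 0.05), and with array quality weights 3 were higher and 12 lower (median −0.02). Among other cell types, the ranges of summed markers in the sponge and control libraries overlapped for microglia, at 4745 to 5419 and 4216 to 8141. They overlapped too for vascular and meningeal cells, at 10022 to 15594 and 10039 to 15386, and for interneurons, at 42114 to 80644 and 54800 to 78825. All 10 interneuron markers were nonetheless on the lower side (median −0.24), and 8 of 10 without control library 1 (median −0.13). Without sponge library 1 they were 4 higher and 6 lower (median −0.04), and without both libraries numbered 1, 5 and 5 (median 0.01). Of the microglia markers 4 of 10 were higher and of the vascular and meningeal markers 5 of 10, or 7 and 8 without control library 1. Erythroid genes summed to 3090 to 4259 in sponge libraries and 1444 to 32264 in control libraries, with control library 1 the highest. The part of these cells in the values of the progenitor genes was not tested.

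The authors' deposited table lists 31 of the 32 genes, with adjusted p-values of 0.995 to 1.00. In the authors' deposited table the smallest unadjusted p belongs to Notch3 (log2 fold change 0.47, p = 0.0488), followed by Slc1a3 (0.34, p = 0.0509) and Ednrb (0.39, p = 0.0624). The sign of the fold change in the authors' deposited table matched sponge over control for 10808 of its 10812 genes.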

How the data were processed

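Messenger RNA libraries of 3 sponge and 3 control samples were grouped by their titles, and columns were matched to samples by name. The deposited values are normalised counts, a linear signal that the authors made by dividing gene counts by a library factor (DESeq2 normalisation, per the table's title). STAR 2.7.6a, DESeq2 1.30.1, mm10 and GRCm38 are named per the submitters' processing notes. The sources used here give no annotation, counting tool or strand setting. Within each library all values are whole multiples of the smallest step (largest gap 9.546e-09), and their sum gives the depth. In each library more genes had a count of 2 (927 to 2064) than of 1 (425 to 948), so a count may not be 1 independent molecule. The second table holds, per the file headers, the authors' mean signal, log2 fold change, p-value and adjusted p-value.

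Genes with a mean of at least 10 entered limma 3.58.1 (R 4.3.3) as log2(value + 1) (trend, robust, two-sided, Benjamini-Hochberg over 22479 genes, threshold 0.05). Fold changes are sponge minus control on that scale, which understates changes of low genes. Positions and exon lengths come from GENCODE M21. Per-library values are given for Pax6, Sox2, Eomes and Neurog2, for the 4 genes of smallest p in each role, and for genes whose groups do not overlap; in lists of other genes of these pathways, up to 4 of smallest p are named. Genes and lists were chosen with earlier results of these data known. Alternatives were other pseudocounts and filters, other weights and scalings, a length correction, a replicate block and leaving out libraries.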

Additional observations from a re-analysis of the deposited data

How the results depend on the processing

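No progenitor gene passed the test in any alternative (smallest adjusted p = 0.554). Over all genes, 3 were called higher and 1 lower with array quality weights, 15 and 6 without both libraries numbered 1 (chosen after seeing the data), and 0 to 2 higher and 0 lower when 1 library was left out, the 2 without control library 1. The median of the 32 genes ran from 0.06 to 0.16 when 1 library was left out. With a replicate block the median was 0.09 and the block changed no call. Deviations of same-numbered libraries correlated at −0.05 to 0.0096, and with 3 libraries per group this cannot show whether the numbers pair them. The 8-base match was found in 0 genes.

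Signs turned as follows, and the cause was not tested. With array quality weights, log2 fold changes were −0.090 for Pax6, −0.0062 for Sox2, 0.019 for Emx1, −0.016 for Gli3, 0.045 for Fabp7, 0.056 for Dbi, −0.029 for Dll1, −0.17 for Jag1, −0.021 for Insm1, −0.090 for Neurod1 and 0.021 for Mfap4. With the length correction they were −0.069 for Pax6 and 0.042 for Neurog2. Without both libraries numbered 1 they were −0.12 for Pax6, 0.052 for Emx1, −0.079 for Gli3, 0.014 for Vim, 0.042 for Fabp7, 0.10 for Dbi, −0.14 for Tnc, −0.21 for Jag1, −0.053 for Notch2 and −0.096 for Neurod1. When 1 library was left out in turn, 14 genes kept their sign and 18 did not. For 9 of the 18 the values ran from −0.052 to 0.16 for Pax6, −0.028 to 0.15 for Sox2, −0.11 to 0.14 for Sox3, −0.30 to 0.055 for Emx1, −0.25 to 0.099 for Vim, −0.18 to 0.071 for Nes, −0.26 to 0.15 for Fabp7, −0.46 to 0.21 for Dbi, −0.039 to 0.43 for Tnc. Those of the others ran from −0.042 to 0.25 for Mfge8, −0.014 to 0.17 for Dll1, −0.023 to 0.30 for Dll3, −0.11 to 0.14 for Jag1, −0.15 to 0.029 for Eomes, −1.04 to 0.24 for Neurog1, −0.085 to 0.056 for Neurog2, −0.088 to 0.12 for Insm1 and −0.071 to 0.19 for Neurod1.

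Planned count tests with edgeR and DESeq2 were not run, because a check of units did not accept 2 columns with a step near 1 as whole reads. The values of these columns are nonetheless whole multiples of their step. Length correction used 22428 genes, and Neurog1 was not tested at a mean of at least 50. Depth limits Neurog1, with at most 40 normalised counts in any library, more than it limits the other genes.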
